A study of Mus musculus with 4 samples.

Results

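The members were 10 genes of endothelial junctions and of leakage through the endothelium, namely Cldn5, Ocln, Tjp1, Cdh5, Esam, F11r, Jam2, Plvap, Cav1 and Pecam1. They were found by symbol, each with 1 row, among the 31053 features of the deposited single-cell count tables, and all 10 were detected. The cells came from the ipsilateral brain hemisphere of male mice 8 weeks old, without any allele or agent named in the labels. The groups were sham surgery and day 1, day 3 or day 7 after transient middle cerebral artery occlusion (tMCAO), in which a brain artery is blocked and then reopened. Each group was 1 library, and the design text placed the sham brain at day 7. The hemispheres were perfused with PBS, digested with papain and cleared over Percoll before droplet capture, and the number of mice behind a library is not given in the sources used here. With 1 library per group there was no replicate check and no test, and the condition, the mouse and the library cannot be told apart. Every interval below is an exact 95% interval for counting error only.

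The libraries held 69392755 to 104023002 unique molecular identifiers (UMIs, each standing for 1 captured transcript) in 59429 barcodes, of which 44360 passed the filter. Kept cells had a median of 2507.5 to 3731.5 UMIs per library. Pairs of libraries shared 33 to 88 barcodes. Clustering left the members out, and 9 of 33 clusters were named endothelial from markers. Of their cells, 354 lay in a cluster led by Gpihbp1 and Esm1, and the other 21357 were gated by separate markers as arterial-like, capillary-like, venous-like or between these. The 4 libraries held 3920, 5572, 4737 and 7128 of those 21357 cells in the order sham, day 1, day 3 and day 7, the order of every series of 4 values below. Levels are UMIs scaled to a total of 1000000 (CPM) over the summed cells of a class. A cluster of 3676 shallow cells with endothelial markers stayed unnamed and outside all levels.

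Brain endothelial cells form the blood-brain barrier, in which tight junctions seal the cleft between neighbours and vesicle traffic across the cell is held low. Claudin-5 (Cldn5) forms the seal, occludin (Ocln) lies in its strands and ZO-1 (Tjp1) ties both to actin. VE-cadherin (Cdh5) forms the adherens junction, while Esam, Jam-A (F11r), Jam-B (Jam2) and PECAM-1 (Pecam1) are adhesion molecules of the cell border. Caveolin-1 (Cav1) shapes caveolae, and Plvap forms the diaphragms of fenestrae and caveolae in leaky vessels and is low in mature barrier vessels.

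All 10 genes are protein coding in GENCODE vM21 on GRCm38. Cldn5 is a gene of 1 exon at chr16:18776847-18778262 on the plus strand, Ocln lies at chr13:100496507-100552718 on the minus strand and Tjp1 at chr7:65296165-65527781 on the minus strand. Plvap lies at chr8:71497765-71511752 on the minus strand, where Gtpbp3 overlaps it on the opposite strand, and Cav1 at chr6:17306335-17341452 on the plus strand. The promoters of the 3 tight junction genes are shown because their levels did not move alike over the days. Each is the 250 bases before the RefSeq start (GRCm38.p6), read 5′ to 3′ on the gene's strand, at chr16:18776597-18776846 for Cldn5, chr13:100552719-100552968 for Ocln and chr7:65371245-65371494 for Tjp1. Capitals mark matches to CCAAT or GGGCGG on either strand.

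Cldn5: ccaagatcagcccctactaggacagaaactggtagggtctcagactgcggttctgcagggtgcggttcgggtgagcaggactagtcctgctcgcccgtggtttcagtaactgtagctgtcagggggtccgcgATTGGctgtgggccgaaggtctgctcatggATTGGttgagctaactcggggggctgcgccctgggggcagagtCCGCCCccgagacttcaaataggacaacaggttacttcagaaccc
Ocln: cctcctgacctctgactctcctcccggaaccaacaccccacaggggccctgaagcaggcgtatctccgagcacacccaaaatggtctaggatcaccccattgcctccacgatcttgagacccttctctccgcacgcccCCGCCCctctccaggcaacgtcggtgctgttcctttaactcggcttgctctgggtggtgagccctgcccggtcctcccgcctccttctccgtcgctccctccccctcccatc
Tjp1: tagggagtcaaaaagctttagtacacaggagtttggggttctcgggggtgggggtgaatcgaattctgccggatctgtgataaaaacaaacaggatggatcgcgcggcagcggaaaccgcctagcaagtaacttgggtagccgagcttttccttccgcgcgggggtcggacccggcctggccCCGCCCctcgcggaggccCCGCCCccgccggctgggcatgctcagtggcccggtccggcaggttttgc

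The Cldn5 window held 2 matches to CCAAT, which 33.8% of 32851 RefSeq promoter windows of this length hold, and 1 to GGGCGG, which 32.7% hold. The Ocln window held 1 match to GGGCGG and the Tjp1 window 2, and neither held CCAAT. The letters CTTTGA, a core of the sites that Lef1 and Tcf7 read, was in none of the 3 windows and in 13.8% of all. The Tjp1 start used here lies 156537 bases inside the 5′ end of the GENCODE gene. RefSeq windows were matched for 5 of the 10 members.

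Cldn5 was lower than sham on every day in every segment, and lowest on day 7, although scaling to the median gene left 6 of the 9 ratios below 1, those of day 7 among them. In capillary-like cells its levels were 7695, 7641, 6662 and 5861 CPM, so that sham and day 1 lay together and the later days below them. The day 7 level was 0.762 times the sham level (0.752 to 0.771), while the day 1 ratio of 0.993 had an interval of 0.978 to 1.01 that spans 1. Arterial-like cells had 6626, 6487, 5723 and 5486 CPM and a day 7 ratio of 0.828 (0.814 to 0.842). Venous-like cells had 7229, 6462, 5580 and 5308 CPM and a day 7 ratio of 0.734 (0.713 to 0.756). All 9 ratios for segment and day were below 1, and none reached 1.5 fold. After thinning each cell to 1000 UMIs, 99, 99.1, 97.7 and 97.4% of endothelial-like cells had a Cldn5 UMI. Oligodendrocyte-like cells, which should lack it, gave 5.01, 8.97, 5.75 and 12.4%. The median depth before thinning was 3470.5, 2099.5, 2463 and 2352 UMIs in these endothelial-like cells and 7882.5, 4945, 6667 and 5872 UMIs in oligodendrocyte-like cells.

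**Figure D1:**
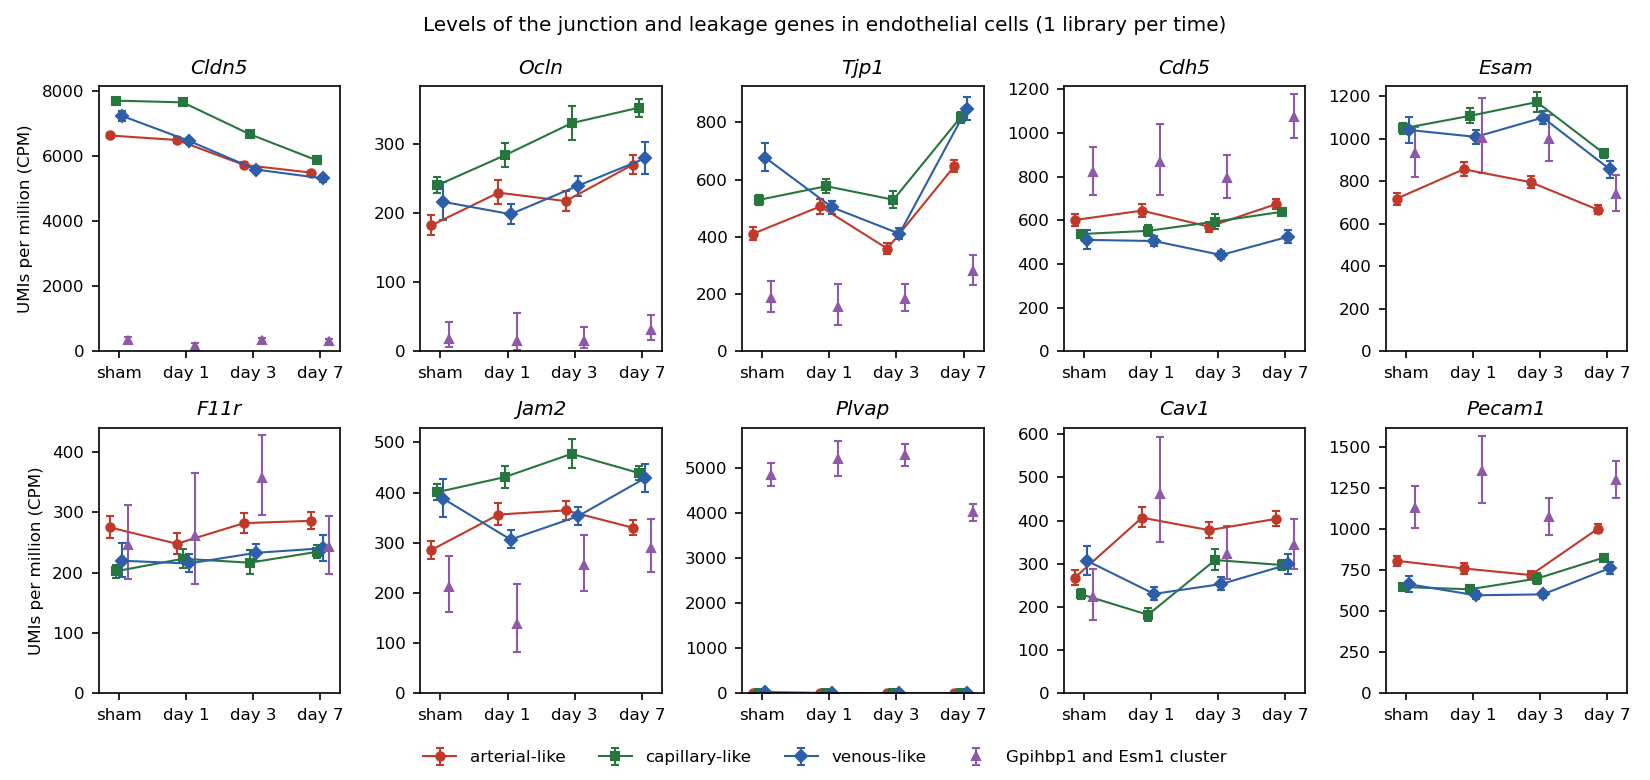
Levels of the 10 members in CPM (vertical axes, each with its own scale) by library (horizontal axis) for the 3 segments and the Gpihbp1 and Esm1 cluster; bars are exact 95% Poisson intervals for counting error. Cldn5 steps down from sham to day 7 in all 3 segments, from 7695 to 5861 CPM in capillary-like cells, while Ocln and Tjp1 are highest on day 7 in each. Triangles stand for the Gpihbp1 and Esm1 cluster, where Plvap lies between 4011 and 5282 CPM.

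Ocln moved the other way from Cldn5. Its levels in capillary-like cells were 240, 283, 330 and 352 CPM, a step up at each day, with a day 7 ratio of 1.47 (1.38 to 1.56). Arterial-like cells had 182, 230, 217 and 270 CPM and a day 7 ratio of 1.48 (1.35 to 1.63). Venous-like cells had 216, 198, 239 and 279 CPM, and here the day 1 interval of 0.792 to 1.07 spans 1. Of the 9 ratios 8 were above 1 and none passed 1.5 fold. With the strict gate 3 of 9 were above 1, and with up to 6000 genes per cell and no integration all 3 day 7 log2 ratios passed, at 0.62 to 0.72. The arterial-like day 7 log2 ratio also passed with cells thinned to 1000 UMIs (0.67) and with each cell weighted equally (0.60). The share of capillary-like cells with an Ocln UMI at 1000 UMIs per cell was 22.4, 26.2, 29.2 and 30.8%, against 0.395, 0.629, 0.469 and 1.97% of oligodendrocyte-like cells.

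Tjp1 was highest on day 7 in all 3 segments. Arterial-like cells had 411, 507, 359 and 648 CPM, with a day 7 ratio of 1.57 (1.48 to 1.68). Capillary-like cells had 530, 577, 530 and 817 CPM, with a day 7 ratio of 1.54 (1.48 to 1.61). Venous-like cells had 677, 503, 411 and 847 CPM, so that this segment was the highest of the 3 in sham, lay at 0.608 of sham on day 3 (0.557 to 0.663) and above sham on day 7 at 1.25 (1.15 to 1.36). Both day 7 ratios and the venous-like day 3 ratio passed 1.5 fold with 10 CPM added to each level, the threshold used throughout for genes at 20 CPM or more in either library. The same threshold was passed upwards by 6.41% of all genes in arterial-like cells and 7.99% in capillary-like cells on day 7, and downwards by 9.88% in venous-like cells on day 3. All 3 calls depended on the processing. With the strict gate the day 7 log2 ratio became -0.22 in arterial-like cells (0.64 before), of which 72 were left over the 4 libraries, and 0.33 in capillary-like cells (0.62 before). With cells thinned to 1000 UMIs the day 7 log2 ratios were 0.53 in arterial-like and 0.58 in capillary-like cells and the venous-like day 3 ratio was -0.51, so that none of the 3 passed, and none passed with each cell weighted equally. With up to 6000 genes per cell and no integration the venous-like day 3 ratio was -0.39, short of the threshold. With median scaling the day 7 log2 ratios were 0.576 in arterial-like and 0.547 in capillary-like cells, both short of it. With whole clusters as segments, chosen after seeing the data, the capillary-like one was 0.549, also short of it. At 1000 UMIs per cell a Tjp1 UMI was found in 42.7, 46.0, 41.5 and 55.9% of capillary-like cells, and in 7.11, 10.2, 7.28 and 15.3% of oligodendrocyte-like cells.

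**Figure D2:**
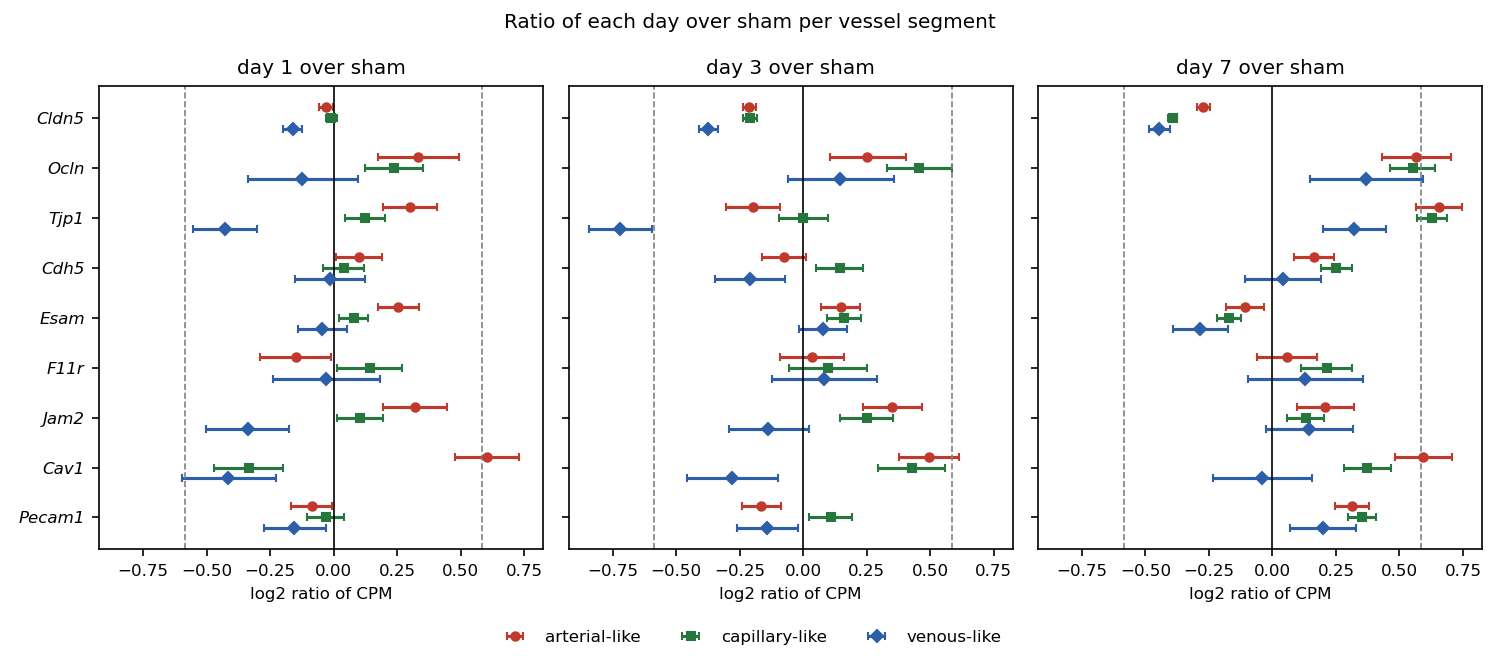
Log2 ratio of CPM of each day over sham (horizontal axes) for each member but Plvap in the 3 segments, with exact 95% intervals; lines mark a ratio of 1 and 1.5 fold in either direction. Cldn5 lies left of 1 throughout, Tjp1 reaches ratios of 1.57 and 1.54 on day 7, and Cav1 on day 1 lies at a ratio of 1.52 in arterial-like but at 0.793 and 0.75 in capillary-like and venous-like cells.

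The junctional adhesion members and Cdh5 moved by less than 1.5 fold in every segment on every day. Cdh5 in capillary-like cells had 537, 552, 594 and 639 CPM, a day 7 ratio of 1.19 (1.14 to 1.24), and in venous-like cells 510, 505, 441 and 525 CPM. Pecam1 was highest on day 7 in each segment, with 648, 634, 699 and 827 CPM in capillary-like cells and a day 7 ratio of 1.28 (1.23 to 1.33). In arterial-like cells Pecam1 had 807, 761, 721 and 1003 CPM. Esam ran the other way and was lowest on day 7 in each segment, with 1049, 1108, 1173 and 931 CPM in capillary-like cells and a day 7 ratio of 0.888 (0.859 to 0.917). F11r had 202, 223, 217 and 235 CPM in capillary-like cells, and its venous-like intervals spanned 1 on all 3 days. Jam2 was above sham on all 3 days in arterial-like cells, at 286, 356, 365 and 330 CPM, and below sham on day 1 in venous-like cells, at 306 against 388 CPM.

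Cav1 differed in direction between segments on day 1. Arterial-like cells had 268, 407, 378 and 404 CPM, above sham on each day, with a day 1 ratio of 1.52 (1.39 to 1.66) that fell short of the threshold once 10 CPM was added. Capillary-like cells had 230, 182, 309 and 297 CPM, with a day 1 ratio of 0.793 (0.722 to 0.870). Venous-like cells had 307, 230, 253 and 298 CPM, with a day 1 ratio of 0.75 (0.661 to 0.854). Capillary-like cells were thus below sham on day 1 and above it later, while venous-like cells stayed at or below sham. With the strict gate, which left 7 sham and 19 day 1 venous-like cells, the venous-like day 1 log2 ratio was 1.85 and that of arterial-like cells 0.34, so the opposite direction of these segments was lost, while capillary-like cells kept theirs at -0.51. The arterial-like day 1 log2 ratio passed the threshold with median scaling (0.64), 1 CPM added (0.60) and called doublets left out (0.59). It also passed with a gap of 0.5, chosen after seeing the data (0.68), and fell short in the other alternatives. The venous-like one passed downwards with cells thinned to 1000 UMIs (-0.66) and with whole clusters as segments (-0.63). The difference between segments was not tested.

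Over all members, 84 ratios for segment and day had enough counts, 2 passed 1.5 fold upwards (both Tjp1) and 4 downwards, of which 1 was Tjp1. The other 3 were Plvap in venous-like cells, which entered only through its sham level and could be called in that direction alone. In arterial-like cells the threshold was passed upwards by 4.31, 2.7 and 6.41% of all genes on day 1, 3 and 7 and downwards by 5.94, 3.36 and 2.61%, and of the members by Tjp1 upwards on day 7. In capillary-like cells it was passed upwards by 3.97, 4.6 and 7.99% of all genes and downwards by 5.24, 2.94 and 2.8%, and of the members again by Tjp1 upwards on day 7. In venous-like cells it was passed upwards by 6.6, 5.7 and 7.72% of all genes and by no member, and downwards by 17, 9.88 and 4.16%, with Plvap on each day and Tjp1 on day 3. The members' counts are too small to set them apart from those shares. Counting error was small, and 64 of the 84 intervals lay to one side of 1. The share of all genes with such intervals was not computed, so this count does not set the members apart. The median log2 ratio of all genes was between -0.17 and 0.07. Genes used for the gate also differed between the libraries. In all endothelial-like cells the capillary marker Mfsd2a had 591, 335, 376 and 371 CPM. The venous markers Vwf and Ackr1 had 284, 901, 1036 and 567 CPM and 12.6, 40.1, 731 and 29.9 CPM. Other markers of the same lists ran differently. Among capillary markers Tfrc had 384, 442, 234 and 806 CPM, Slc16a1 281, 629, 254 and 396 CPM and Slc7a5 680, 738, 639 and 766 CPM. Among venous markers Slc38a5 had 242, 207, 376 and 118 CPM and Ephb4 84.9, 61.5, 96.7 and 93.5 CPM. Arterial-like cells numbered 860, 992, 1103 and 1737, capillary-like cells 1821, 1651, 897 and 2966 and venous-like cells 336, 1067, 1361 and 717. Before the Gpihbp1 and Esm1 cluster was set apart, 3526 cells were gated as venous-like. Of these 1602 lay in the cluster led by Ackr1, and 922 and 547 lay in 2 other endothelial clusters. The cells under a segment's name may therefore not be the same between libraries, and the part of this in the ratios was not tested.

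The order of the segments was compared within each library for the 9 members at 20 CPM or more in every segment, which leaves out Plvap. Capillary-like cells had more Cldn5 than arterial-like cells in all 4 libraries, with arterial over capillary ratios of 0.861, 0.849, 0.859 and 0.936, and also more Ocln, Tjp1, Esam and Jam2. Such an order, capillary-like above arterial-like in every library, held for 5 of 9 members and for 31.1% of all genes. Arterial-like cells had more F11r than capillary-like cells, by 1.36, 1.11, 1.30 and 1.22 times, more Cav1, by 1.17, 2.24, 1.22 and 1.36 times, and more Pecam1. This made 3 of 9 members, beside 19.3% of all genes. The interval of the arterial over capillary ratio of Pecam1 on day 3, 0.969 to 1.10, spanned 1. Capillary-like cells exceeded venous-like cells in Cldn5, Ocln, Cdh5, Esam and Jam2 in every library (5 of 9 members, 28.2% of all genes), and none of the 9 held the opposite order (11.7%). Only for Cldn5 did the intervals of this ratio lie above 1 in all 4 libraries. In sham they spanned 1 for Ocln (0.969 to 1.28), Cdh5 (0.962 to 1.15), Esam (0.946 to 1.07) and Jam2 (0.933 to 1.15). The Jam2 interval on day 7, 0.951 to 1.10, also spanned 1. Arterial-like cells exceeded venous-like cells in Cdh5, F11r and Pecam1 (25.6% of all genes), and the reverse held for Esam alone (19.3%). For Tjp1 neither venous-like comparison kept its order, since venous-like cells were highest in sham and on day 7 but not between. On day 7 the capillary over venous ratio of Tjp1 was 0.965, with an interval of 0.916 to 1.02 that spans 1. Since a large share of all genes keeps an order too, these counts are a description and set no member apart.

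Plvap was concentrated in the cells of the Gpihbp1 and Esm1 cluster. This cluster of 82, 46, 92 and 134 cells held 93.0, 72.2, 93.0 and 93.8% of the Plvap UMIs of a library's kept cells. Its levels were 4850, 5197, 5282 and 4011 CPM, against 3.28, 4.02, 2.80 and 1.29 CPM in the other endothelial-like cells. After thinning to 1000 UMIs, a Plvap UMI was found in 91.9, 97.5, 97.7 and 88.4% of the cluster's cells (74, 40, 87 and 121 cells, median depth before thinning 3142, 2200, 3481 and 2708.5 UMIs). The other endothelial-like cells gave 0.134, 0.232, 0.290 and 0.107% (3728, 4733, 4479 and 6559 cells, with 192, 839, 258 and 569 too shallow left out). The shares without thinning were 96.3, 97.8, 98.9 and 94.8% and 0.408, 0.646, 0.612 and 0.295%. Oligodendrocyte-like cells, which should lack the transcript, gave 0.132, 0.461, 0.117 and 0.0788% when thinned. Their counting intervals include the endothelial-like shares, so a share above background was not detectable in endothelial-like cells outside the cluster at this depth. Single endothelial-like cells outside the cluster nevertheless held up to 19 Plvap UMIs in sham and 13 on day 1. Cells of all other classes, unnamed ones included, held 3.65, 21.3, 4.83 and 4.73% of a library's Plvap UMIs. On day 1 these were 200 UMIs in 130 of 7758 cells. The cluster was set apart after the cluster tables had been seen. Neither its name nor its definition used Plvap.

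The venous-like Plvap values rested on few cells. The levels were 30.2, 7.48, 1.82 and 3.41 CPM, from 33, 28, 8 and 7 UMIs, all 3 days past 1.5 fold below sham. Only sham exceeded the 20 CPM needed for a call, so only a lower value could be called, and these 3 calls are given as a description. Over all sham endothelial-like cells outside the cluster, Plvap made 48 UMIs in 16 cells, and 2 of those cells held 29 of the 48.

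**Figure D3:**
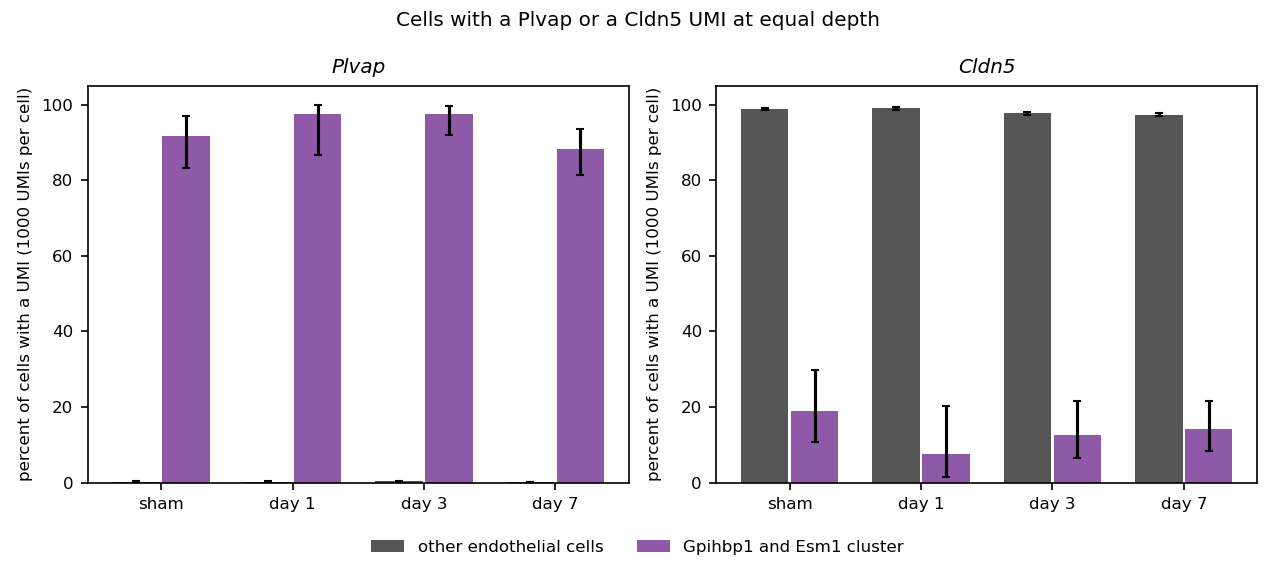
Percent of cells with at least 1 UMI of Plvap or Cldn5 (vertical axes) by library (horizontal axis) after thinning each cell to 1000 UMIs, in the Gpihbp1 and Esm1 cluster and in the other endothelial-like cells; bars are exact 95% binomial intervals. Plvap marks 88.4 to 97.7% of the cluster's cells and at most 0.290% of the others, and Cldn5 7.5 to 18.9% against 97.4 to 99.1%.

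The tight junction members were low in the Gpihbp1 and Esm1 cluster. Cldn5 had 351, 169, 337 and 316 CPM there, from 96, 22, 113 and 133 UMIs, against 7302, 6847, 5883 and 5568 CPM in the other endothelial-like cells. Ocln had 18.3, 15.4, 14.9 and 30.9 CPM, from 5, 2, 5 and 13 UMIs, against 216, 231, 252 and 310 CPM. Tjp1 had 187, 154, 185 and 281 CPM against 506, 526, 416 and 746 CPM. Each of these was past 1.5 fold lower in all 4 libraries, as were 6.37% of all genes, and Plvap was past it higher, as were 5.47%. Ocln was under 20 CPM in the cluster in sham and on day 1 and day 3, so there only a lower value could be called. Plvap was under 20 CPM in the other endothelial-like cells in every library, so for it only a higher value could be called. Cdh5 and Pecam1 had higher levels in the cluster than elsewhere in every library, at 820, 867, 796 and 1073 CPM and at 1127, 1351, 1073 and 1299 CPM. Esam was close to its level elsewhere, at 933, 1006, 1001 and 742 CPM, which is 0.982, 1.00, 0.979 and 0.897 times that of the other cells. F11r had 245, 261, 358 and 243 CPM against 225, 222, 244 and 253 CPM. Jam2 had 212, 138, 256 and 290 CPM, below 362, 365, 397 and 398 CPM. Cav1 had 223, 461, 322 and 343 CPM against 252, 252, 318 and 338 CPM, and its day 1 level was 2.06 times the cluster's own sham level (1.42 to 3.00). In the same contrast Cldn5 was past the threshold downwards at 0.481 (0.288 to 0.770), and so was Jam2 at 0.651, with an interval of 0.361 to 1.12 that spans 1. The cluster's Cldn5 UMIs lay in 7 of 46 cells on day 1 and 23 of 82 in sham, while the interval treats UMIs as independent. In that contrast 19.5% of all genes passed the threshold upwards and 24.7% downwards. On day 7 Cav1 was again past it, at 1.53 (1.13 to 2.11), as the only member, beside 17.9% of all genes upwards and 13.6% downwards.

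Other cell types' markers were also measured in the cluster. Its summed pericyte markers (7 genes) had 318, 476, 587 and 209 CPM against 58.1, 89.4, 57.3 and 38 CPM in the other endothelial-like cells. Of its cells 23.2, 13, 23.9 and 27.6% had doublet scores in the range called, and without those cells the share of the cluster's cells with a Plvap UMI over all 4 libraries was 95.2%, against 92.9% with them. The part of the pericyte markers in the levels was not tested.

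Genes of the Wnt and barrier programme, which instructs brain endothelium to build the barrier, were low in the cluster as well. Of the 16 genes of that list 12 were past 1.5 fold lower in all 4 libraries and 2 higher, the Wnt receptor gene Fzd4 and its partner Tspan12. The transcription factor gene Foxq1 had 40.3, 7.68, 26.8 and 85.7 CPM in the cluster against 543, 464, 460 and 602 CPM, and Lef1, which reads the Wnt signal, had 47.6, 0, 32.8 and 57.1 CPM against 403, 287, 363 and 544 CPM. Among the others lower there were Tcf7, Foxf2, Sox17, Apcdd1, Axin2, Nkd1, Fzd6, Adgra2 and Ndrg1. Of 6 further tight junction genes with enough counts in all 4 libraries Cgnl1 and Lsr were lower and Jam3 higher, and of 7 adherens junction genes Jup was higher. Of 10 caveolar and vesicle genes Ehd4 and Flot2 were higher. Jam3 and Flot2 were under 20 CPM in the other endothelial-like cells in every library, so only a higher value could be called for them. Cgnl1 was under 20 CPM in the cluster on day 3, where only a lower value could be called. Over all genes 6.37% were lower and 5.47% higher, so counts of 1 or 2 genes do not set these lists apart.

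The same lists were followed over the days in the 3 segments, where 65 of 477 values (13.6%) passed 1.5 fold in either direction, near the 11.6% of all genes over the same segments and days. Among tight junction genes, the polarity gene Pard3 was higher on day 7 in arterial-like, capillary-like and venous-like cells, by 1.93, 2.08 and 1.92 times, and the scaffold gene Mpdz was lower in venous-like cells on day 1 (0.401, 0.230 to 0.709, from 33 UMIs against 24 in fewer sham cells). In that contrast Mpdz exceeded 20 CPM only in sham, so only a lower value could be called, and this call is given as a description. The tight junction list's median log2 ratio on day 7 was 0.28, 0.26 and 0.28 against 0.07, 0.07 and 0.05 over all genes. These medians cover only genes with enough counts, which were 6 of the 11 over all endothelial-like cells on day 7. Pard3 was among them in each segment, so the medians do not stand for the whole list. In the adherens junction list, the catenin gene Ctnnd1 was higher on day 1 in arterial-like (1.77) and capillary-like cells (1.65), and the phosphatase gene Ptprb, whose product acts on the VE-cadherin complex, was lower in venous-like cells on day 1 (0.549) and day 3 (0.520).

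Of 9 other caveolar and vesicle genes with enough counts on day 7, 2 were past 1.5 fold higher in arterial-like, 2 in capillary-like and 1 in venous-like cells, and none lower, beside 6.41, 7.99 and 7.72% of all genes higher and 2.61, 2.8 and 4.16% lower. Counts of 1 or 2 genes do not set the list apart. Cavin2, a coat gene of caveolae, was 1.73, 1.84 and 1.84 times its sham level in arterial-like, capillary-like and venous-like cells, and Cavin1 1.54 and 1.69 times in the first and second of these. On day 3 both were lower in venous-like cells, at 0.651 for Cavin1 and 0.501 for Cavin2. Flot1 was higher on day 3 in all 3 segments, by 2.10, 2.25 and 1.64 times. In the list of other adhesion genes, Podxl, a sialomucin of the luminal surface, was 2.94 times its sham level on day 3 in capillary-like cells. In venous-like cells Podxl was 2.68 times that level on day 3. Emcn was 0.610 times its sham level on day 1 in arterial-like cells. Venous-like cells also had Mcam at 6.07 times sham on day 1 and 4.77 times on day 3, and Cdh13 at 8.55 times on day 1. Both were under 20 CPM in sham, from 5 and 3 UMIs, so only a higher value could be called.

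In the Wnt and barrier list, the target genes Axin2 and Nkd1 were lower in arterial-like and venous-like cells on day 1 and day 3, with ratios of 0.508 and 0.545 for Axin2 in arterial-like cells. The list had 4 of 16 genes lower in venous-like cells on day 1 (17% of all genes) and 5 on day 3 (9.88%), among them Lef1 on day 1 (0.526) and Fzd4 on day 3 (0.486). No gene of it was lower on day 7, when Ndrg1 was higher in capillary-like (1.73) and venous-like cells (1.80). Among protease genes and their inhibitors, Timp3 was higher on day 7 by 1.80, 2.14 and 2.63 times in the 3 segments and Plat, the plasminogen activator, by 1.80, 1.93 and 2.03 times. Mmp15 was lower in capillary-like cells on all 3 days, down to 0.219 on day 7. Over all endothelial-like cells it had 21.8, 10.5, 7.44 and 5.45 CPM, and only the sham level exceeded 20 CPM. A gene that enters through its sham level can be called in the lower direction alone, so these calls are given as a description.

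Members were also measured outside the endothelium, where free endothelial RNA and doublets can carry them. A class was said to hold a member if its level, as a percentage of the endothelial-like level in the same library, exceeded that of all 8 endothelial markers in the same library, for every library with at least 50 of its cells. Most genes meet this in each class named here (84.4% in pericyte-, 93.3% in smooth muscle-, 86.8% in fibroblast-, 78.1% in astrocyte-, 91.5% in oligodendrocyte-, 86.3% in neuron-, 87.1% in ependymal-, 83.2% in choroid plexus-, 86.5% in microglia- and 87.1% in border macrophage-like cells), since the markers are picked for being endothelial, so the counts below say only that a member is less confined to endothelium than those markers.

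Tjp1 and Esam were held by pericyte-like cells. Tjp1 had 341, 369, 407 and 555 CPM there, which is 67.4, 70.2, 97.7 and 74.4% of the endothelial-like level. Esam had 639, 619, 776 and 543 CPM, or 67.2, 61.6, 75.9 and 65.7%. The markers lay between 6.08 and 44.2%, a wide band that also took in Cldn5 with 12.6, 14, 8.18 and 12.3%. Smooth muscle-like cells had a band of 0.436 to 9.01% over the 4 libraries, and Tjp1, Esam, F11r and Cav1 exceeded the markers of each library, F11r only narrowly with 20.9 to 24.1 CPM. Their Cav1 level was 156, 260, 222 and 217 CPM, or 62.1, 103, 69.9 and 64.4% of the endothelial-like level, and their Esam level 325, 307, 358 and 251 CPM.

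F11r, which also lies on leukocytes, was held by brain macrophages. Microglia-like cells had 390, 225, 390 and 352 CPM, or 174, 101, 160 and 139% of the endothelial-like level, with markers between 7.13 and 19.7%. The sham and day 1 intervals of that percentage were 150 to 200 and 92.6 to 111, which cover counting error only, and day 1 was the lowest of the 4 libraries. Called doublets made up 9.49, 19.8, 13.7 and 21.9% of microglia-like cells, and their part in these levels was not tested. Border macrophage-like cells had 28.5, 25.6, 47.6 and 73.4 CPM. Choroid plexus-like cells, an epithelium with tight junctions of its own, held F11r with 87.9, 67.6, 90.2 and 112 CPM and Ocln with 56.3, 39.5, 78.4 and 95.2 CPM.

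**Figure D4:**
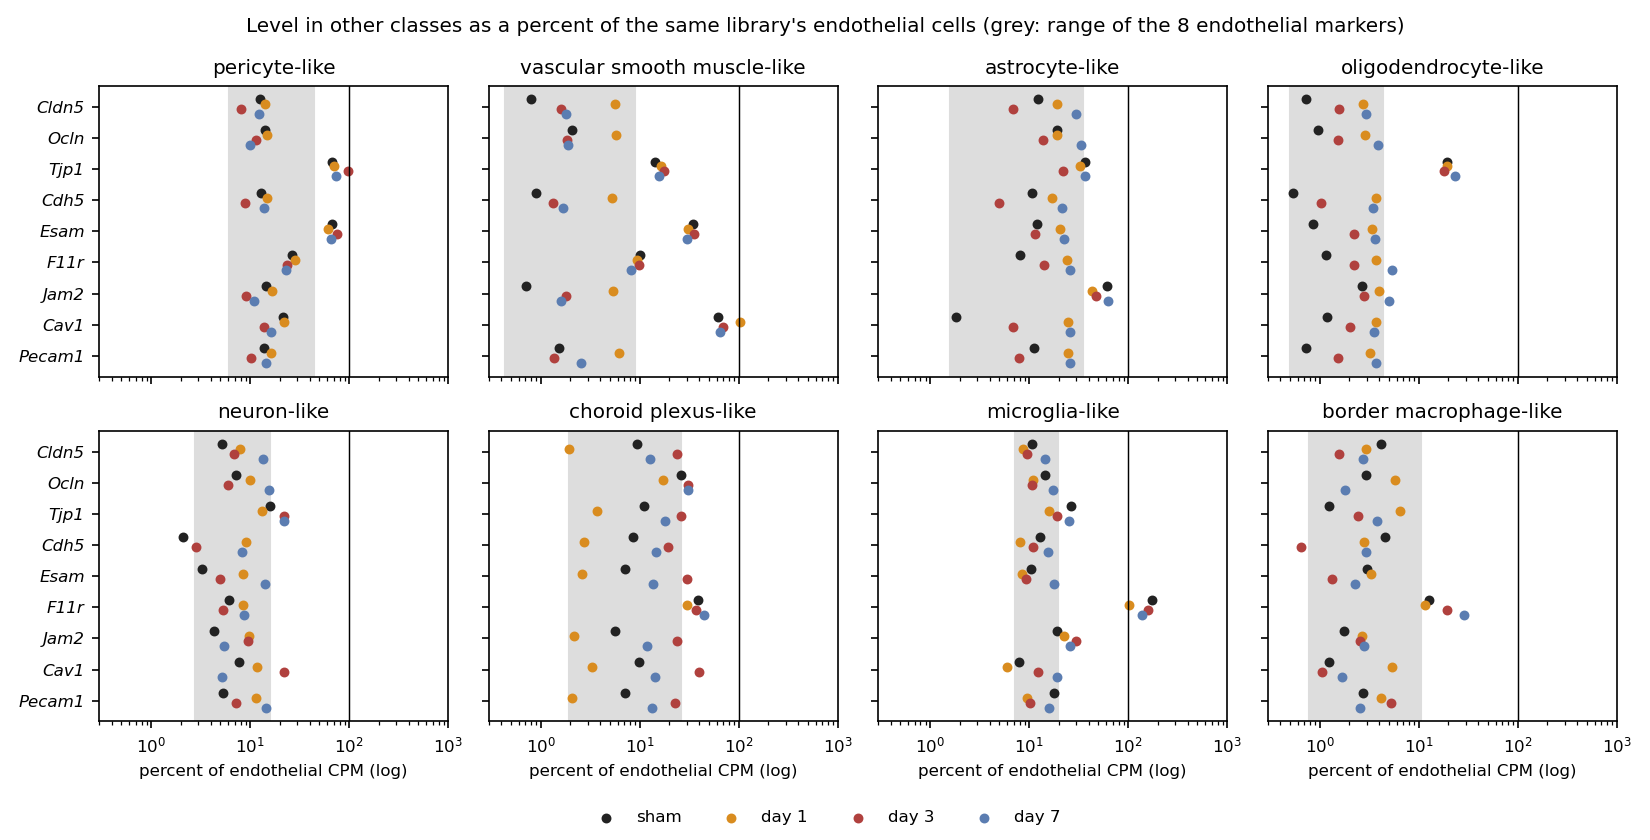
Level of each member in other cell classes as a percent of the endothelial-like level in the same library (horizontal axis, log scale), 1 point per library, with the range of the 8 endothelial markers over all 4 libraries as a grey band. F11r in microglia-like cells lies at or above 100%, Tjp1 and Esam in pericyte-like cells at 61.6 to 97.7%, and values of 0 (Ocln in border macrophage-like cells on day 3) are not drawn.

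Tjp1 had the widest reach. It lay above the markers in pericyte-, smooth muscle-, fibroblast-, astrocyte-, oligodendrocyte-, neuron-, ependymal- and microglia-like cells, with 97.9, 101, 74.7 and 175 CPM in oligodendrocyte-like and 135, 83.4, 80.1 and 189 CPM in microglia-like cells. In both of these day 7 was the highest library, as in the endothelial-like segments. Called doublets made up 5.77, 11.5, 6.78 and 17.2% of oligodendrocyte-like cells, also highest on day 7, and their part in these levels was not tested. Astrocyte-like cells held Jam2 with 220, 157, 186 and 250 CPM, or 60.8, 43.1, 47.0 and 62.8% of the endothelial-like level. Jam2 was also held by oligodendrocyte-like cells. By the same rule ependymal-like cells held Ocln and F11r (3 libraries) and fibroblast-like cells held Cdh5 (2 libraries). Cldn5 and Pecam1 lay above the markers in no class, and Plvap, under 20 CPM in endothelial-like cells outside the Gpihbp1 and Esm1 cluster, was not compared in this way.

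The genes whose levels followed Cldn5 most closely over 64 profiles of class and library, among 13988 genes, were Abcb1a (Pearson r of 0.963), Degs2 (0.961), Foxq1 (0.960), Lsr (0.960) and Slco1a4 (0.959). Abcb1a and Slco1a4 are transporters of the barrier. For Plvap they were Gpihbp1 (0.960), Esm1 (0.952), Ces2e (0.947), Rbp7 (0.944) and Btnl9 (0.940). The profiles share libraries and differ in depth, so the coefficients describe these profiles only. The Gpihbp1 and Esm1 cluster, which held most Plvap UMIs, entered as profiles of its own. Gpihbp1, Esm1 and Rbp7 are among that cluster's leading genes, so their high coefficients with Plvap follow from how the profiles were made. Slco1a4 is likewise one of the markers used to name endothelial clusters.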

How the data were processed

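Cells of 4 libraries (sham and day 1, 3 and 7 after tMCAO, 1 library each) were captured on the 10x Chromium 3′ system. The authors deposited raw UMI counts per gene and barcode. The processing notes name Cell Ranger 3.0.1, Seurat 4.1.2 and GRCh38, while the file headers name Cell Ranger 4.0.0 and the feature IDs are mouse Ensembl IDs, so the build behind the counts is unsettled and coordinates are those of GRCm38.

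The study's filter (at least 200 genes, no more than 3000, mitochondrial share up to 10%) was applied and kept 44360 of 59429 barcodes (fewer cells than its text gives). The kept cells were integrated and clustered in Seurat 5.3.0 (30 dimensions, resolution 1), with the members left out, and clusters were named from marker lists. Segments were gated by the highest mean marker score with a gap of 0.25, and cells below that gap are called between. UMIs were summed per class and library and scaled to CPM. Ratios of CPM have exact conditional intervals, levels exact Poisson and shares Clopper-Pearson intervals. A value counted as past the fold at 1.5 with 10 CPM added, for genes at 20 CPM in either library. Scrublet's own threshold called 17, 617, 3 and 2 cells, so the top scores at 0.8% per 1000 barcodes were called (710, 1903, 899 and 2014), and those cells were kept.

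The members and the gene lists were chosen with earlier results of these data known. The naming margin (0.75 on the log2 scale), the gap, the doublet rate and the separate Gpihbp1 and Esm1 cluster were chosen after seeing the cluster tables. The text names all 10 members, up to 4 genes of a list past the fold in each direction per segment and day, further list genes in the Gpihbp1 and Esm1 cluster that were chosen after their values were seen, and the 5 genes most like Cldn5 and Plvap. Some list genes are not reported here. The scripts were tested on simulated data. Python 3.11.15, numpy 2.4.6, scipy 1.17.1, pandas 2.3.3 and scanpy 1.11.5 were used.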

Additional observations from a re-analysis of the deposited data

Results flagged for a closer look

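The day 1 ratio of Cav1 to sham differed in direction between segments. It was 1.52 (1.39 to 1.66) in arterial-like cells and 0.793 (0.722 to 0.870) in capillary-like cells, a quotient of 1.92, and against 0.75 (0.661 to 0.854) in venous-like cells the quotient was 2.02. With the strict gate the log2 ratio was 1.85 in venous-like cells, from 7 sham and 19 day 1 cells, and 0.34 in arterial-like cells, so those segments no longer differed in direction. With 1 library per time the difference was not tested.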

How the results depend on the processing

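No paired analysis was possible because each group has 1 library, and leaving out a replicate was not possible for the same reason. The count of member ratios (Plvap aside) past 1.5 fold was 3. It was 6 with up to 6000 genes per cell and no integration, 35 with the strict gate (which left 72, 2010 and 67 arterial-like, capillary-like and venous-like cells), 0 with all endothelial-like cells together, 1 with each cell weighted equally and 5 with 1 CPM added. With whole clusters as segments, an alternative chosen after seeing the data, it was 5. The log2 ratio of Cldn5 in capillary-like cells on day 7, -0.39, was -0.24 with the strict gate, -0.46 with median scaling and -0.41 with scores standardised within each library, the last also chosen after seeing the data, and it was below 0 in every alternative. The arterial-like Tjp1 log2 ratio on day 7 changed from 0.64 to -0.22 with the strict gate. With that gate the venous-like Cav1 log2 ratio on day 1 changed from -0.40 to 1.85. The cause was not tested. Of 477 list values 65 passed 1.5 fold and 12 passed 2 fold. The share of cells with a Plvap UMI in the Gpihbp1 and Esm1 cluster over all libraries, 92.9%, was 96.6% without thinning and 83.3% at 500 UMIs, and in the other endothelial-like cells 0.185% became 0.478% and 0.103%. The signs of the 81 member ratios were kept in 53 (strict gate) to 81 (1 CPM added). Depth limits Ocln in the Gpihbp1 and Esm1 cluster, with 2 to 13 UMIs per library, and most Plvap values outside it.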
